A study of Homo sapiens with 4 samples.

Results

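The genes described here are 10 human genes that arose from the gag gene of long terminal repeat retrotransposons: PEG10, LDOC1, RTL5, RTL6, RTL8A, RTL8B, RTL8C, RTL10, PNMA1 and PNMA2. They were chosen by name, and each was found in the table of 28775 genes through its Entrez identifier. All 10 had enough counts to be tested, among 16675 tested genes. RNA-seq had been carried out on HEK293T cells, a line derived from human embryonic kidney, to ask how loss of MORC2 changes gene expression. MORC2 is an ATPase that binds DNA and works with the HUSH complex in silencing retrotransposons and other sequences. The MORC2 KO group has 2 samples, made by electroporation of Cas9 protein with gRNA 1 or gRNA 2, so that each gRNA is represented by 1 sample. These are edited bulk populations and not clones, and the methods describe the edited cells as HEK293. The WT group has 2 replicates of the wild-type line. The labels give no further treatment for either group and do not say whether the WT cells were electroporated, and poly-A RNA was sequenced as 65 bp read pairs.

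Gag is the structural protein that retroviruses and retrotransposons use to build their capsid. In mammals several gag genes lost their ability to transpose and were kept as host genes, with PEG10 and the RTL genes among those known for roles in the placenta and the PNMA genes known as targets of autoantibodies in paraneoplastic neurological disease. Most have their whole coding sequence in a single exon, a trait of their retrotransposon origin. By the annotation the authors used, 6 of the 10 genes had 1 exon, and in every one of the 10 the longest exon held at least 95.3% of the exon bases. The 5 members LDOC1, RTL5, RTL8A, RTL8B and RTL8C are on chromosome X, PEG10 is on chromosome 7, RTL6 and RTL10 are on chromosome 22, PNMA1 is on chromosome 14 and PNMA2 is on chromosome 8.

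The counts summed to 59803625 and 64312514 in MORC2 KO replicates 1 and 2, and to 60331708 and 53970043 in WT replicates 1 and 2. The 2 KO samples differed from each other more than the 2 WT samples did, with a chi-square per degree of freedom of 16.8 against 6.56 over genes with a summed count of at least 20. MORC2 itself had 3064 and 3637 counts in KO cells against 5131 and 4669 in WT cells. This was 53.1 ± 2.69 against 87.0 ± 1.06 counts per 1000000 (CPM, on libraries scaled by TMM factors; SD, n = 2 per genotype), and the groups did not overlap. MORC2 thus fell by 0.71 ± 0.06 on the log2 scale (here and below ± after a log2 fold change is the standard error; adjusted p = 0.000137, edgeR quasi-likelihood test), the direction that the labels give, and much MORC2 transcript remained. The paper measured KO efficiency at the protein level by western blot, and RNA counts do not show how much protein remained. MORC2 shares 23.3% of its annotated exon bases with MORC2-AS1. All 9 markers listed for an embryonic kidney line were detected and tested, among them VIM, an intermediate filament gene. VIM stood at 569.5 ± 21.8 CPM in KO and 561.1 ± 19.4 in WT, and none of the 9 was called by edgeR, with 1 (NEFM, higher) at an unadjusted p under 0.05. The levels of the 9 differed widely. In WT, CDH2 followed VIM at 90.8 ± 2.54 CPM and NEFL at 68.1 ± 0.934. The lowest were PAX2 at 1.49 ± 0.0836 and KRT8 at 2.24 ± 0.314, both below the fibroblast gene COL1A1 at 3.85 ± 0.211. The name of the line is taken from the labels. Markers of other cell types were low, and are given as summed CPM of the total counts without TMM factors. The sums lay between 3.37 and 4.43 for 5 fibroblast genes and between 1.09 and 1.60 for 7 blood genes. Those of 4 endothelial genes lay between 0.327 and 0.597, and those of 3 hepatocyte genes between 0.199 and 0.327. COL1A1 was the most abundant of the fibroblast genes, COL1A2 had 0 counts in all 4 samples and the leukocyte gene PTPRC had at most 1.

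Of the 10 gag-derived genes, RTL5 and RTL8B rose in MORC2 KO cells and none fell, by edgeR and by DESeq2 alike. RTL5 stood at 14.3 ± 1.67 CPM in KO against 8.83 ± 0.746 in WT, and RTL8B at 36.8 ± 1.08 against 24.5 ± 0.967 (SD, n = 2 per genotype). The other 8 genes did not pass the adjusted threshold of 0.05. Over all tested genes 98 rose and 5 fell, a background of 0.588% higher and 0.03% lower (0.618% in either direction), beside which 2 of 10 members were higher and 0 lower. The members were chosen with earlier results of these data known, so this share is a description. The median log2 fold change was 0.07 over the 10 members and 0.01 over all tested genes. At an unadjusted p under 0.05, 4 members were higher (RTL5, RTL8B, PNMA2 and RTL6) and 0 lower, where 8.14% of tested genes were higher. In bulk RNA, a change in the number of cells expressing a gene and a change in RNA per cell cannot be told apart.

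**Figure D1:**
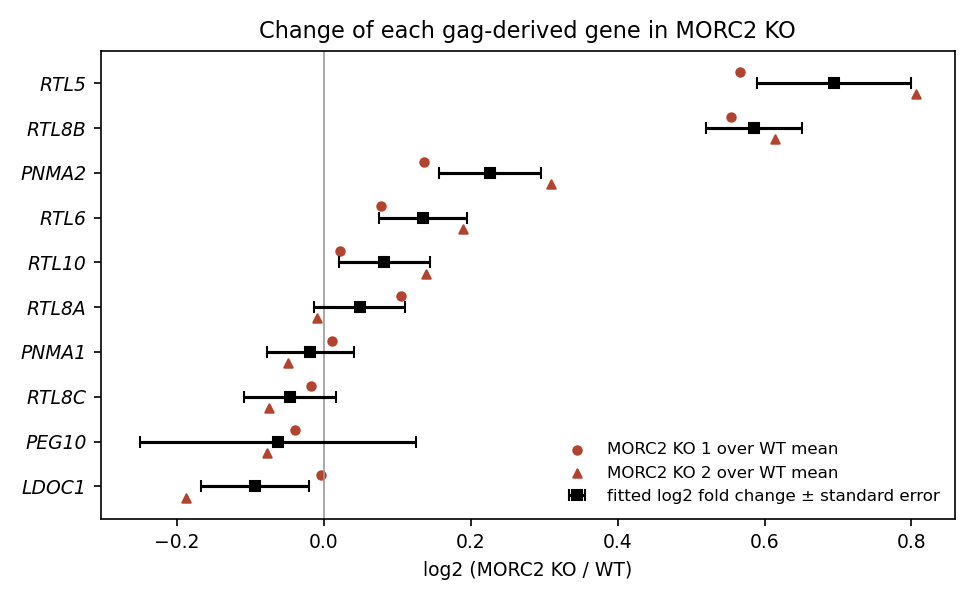
Log2 fold change of each gag-derived gene in MORC2 KO over WT (x axis), with squares and bars for the fitted value ± standard error and red symbols for each KO sample over the WT mean. RTL5 and RTL8B lie apart at 0.69 and 0.59, with both of their KO samples above 0.5, while the other 8 fitted values lie between -0.09 and 0.23.

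The RTL8 copies are shown first because they are near-identical and can share reads. They lie side by side on chromosome X, with 9.81 kb between RTL8B and RTL8C and 17.4 kb between RTL8C and RTL8A. Each has 339 coding bases. RTL8A and RTL8B differed at 12 of these (96.5% identity), RTL8A and RTL8C at 16 (95.3%) and RTL8B and RTL8C at 19 (94.4%). The first 150 coding bases of RTL8B, the copy that rose, and of RTL8A, the copy nearest to it in sequence, are printed 5′ to 3′ from GENCODE 29 (GRCh38), with capitals at the 7 positions where they differ.
RTL8A, chrX:135051959-135052108, minus strand: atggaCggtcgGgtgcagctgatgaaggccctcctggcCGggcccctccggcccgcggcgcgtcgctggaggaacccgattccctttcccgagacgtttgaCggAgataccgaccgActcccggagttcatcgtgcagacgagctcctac
RTL8B, chrX:135022310-135022459, minus strand: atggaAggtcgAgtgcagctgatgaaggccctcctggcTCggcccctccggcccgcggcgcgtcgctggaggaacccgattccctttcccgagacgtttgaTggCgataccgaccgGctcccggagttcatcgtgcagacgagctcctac
Long runs of lower-case bases, in which the 2 copies are identical, lie between some of the capitals, while other capitals are adjacent or a few bases apart. Over the longest coding transcripts, 57 of 1180 windows of 65 bases in RTL8A (4.83%) were also found in RTL8B. In RTL8B 89 of 1962 windows (4.54%) were found in RTL8A or RTL8C, and in RTL8C 32 of 1117 (2.86%) were found in RTL8B. Windows were also shared outside the RTL8 copies, by PNMA2 (5.92%, with BNIP3L, DPYSL2 and AC126474.2), RTL10 (5.09%, with GNB1L) and PEG10 (2.37%, with SGCE). RTL5, LDOC1, RTL6 and PNMA1 had 0 such windows in common with any other gene, although the transcripts used for LDOC1 (1381 bases) and RTL5 (4105 bases) are shorter than the exon lengths counted (3895 and 4806 bases), so part of the counted bases was not examined.

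The start regions of the 2 members that rose are shown with that of RTL8A, a copy of RTL8B that, like RTL8C, was not called. The sequences are those of RefSeq on GRCh38.p14, from 250 bases before to 50 after the gene start, 5′ to 3′ on the gene's strand, with each CG dinucleotide in capitals.
RTL5 promoter, chrX:72131866-72132165, minus strand: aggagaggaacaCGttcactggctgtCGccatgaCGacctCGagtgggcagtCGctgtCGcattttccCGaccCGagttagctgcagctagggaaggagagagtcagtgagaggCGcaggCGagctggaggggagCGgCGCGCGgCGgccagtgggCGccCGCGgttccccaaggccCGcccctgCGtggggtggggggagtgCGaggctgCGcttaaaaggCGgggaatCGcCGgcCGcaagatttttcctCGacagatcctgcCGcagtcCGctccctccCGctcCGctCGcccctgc
RTL8B promoter, chrX:135022493-135022792, minus strand: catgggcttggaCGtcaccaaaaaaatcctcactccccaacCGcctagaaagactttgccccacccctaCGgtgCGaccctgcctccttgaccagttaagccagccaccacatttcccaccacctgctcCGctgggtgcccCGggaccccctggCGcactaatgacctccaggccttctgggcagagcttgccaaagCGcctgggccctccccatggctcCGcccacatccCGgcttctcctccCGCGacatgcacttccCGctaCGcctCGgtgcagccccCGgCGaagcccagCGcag
RTL8A promoter, chrX:135052086-135052385, minus strand: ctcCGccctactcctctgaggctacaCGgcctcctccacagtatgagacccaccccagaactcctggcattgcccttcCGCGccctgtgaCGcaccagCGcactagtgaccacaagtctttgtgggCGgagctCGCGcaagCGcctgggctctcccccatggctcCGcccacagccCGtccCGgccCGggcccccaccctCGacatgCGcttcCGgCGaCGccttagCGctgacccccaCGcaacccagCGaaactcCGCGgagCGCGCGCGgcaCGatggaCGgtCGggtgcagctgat
CG reads the same on both strands, and overlapping runs such as CGCG count each pair. The RTL5 window held 32 CG and the RTL8A window 31, numbers reached by 18.9% and 20.7% of 35116 promoter windows of this length. The RTL8B window held 18, a number reached by 44.5% of them. The LDOC1 window held 34, the RTL6 window 38 and the RTL10 window 44. The start regions of RTL8C, PEG10, PNMA1 and PNMA2 were not analysed here. Of these 6 windows that of RTL8B held the fewest and that of RTL5 lay next above RTL8A.

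Levels between genes were compared per kilobase of exon. In WT cells PNMA1 had the highest level, 56.0 ± 2.42 CPM per kb (SD, n = 2). RTL8C followed with 54.5 ± 3.41 and RTL8A with 53.7 ± 1.53, and the samples of these 3 genes overlapped. RTL6 had 16.2 ± 0.277 and RTL8B 12.1 ± 0.476 CPM per kb. LDOC1 (7.74 ± 0.185), RTL10 (7.22 ± 0.103) and PNMA2 (6.86 ± 0.0899) formed a close group whose WT samples did not overlap. RTL5 was at 1.84 ± 0.155 and PEG10 was lowest at 0.308 ± 0.0514, so that the WT levels spanned 181.5-fold. The median tested gene was at 4.75 CPM per kb in WT, and 8 members were above it. In KO cells the order of the means differed in 3 places. RTL8A (55.5 ± 3.12 CPM per kb) came before PNMA1 (55.3 ± 1.62) and RTL8C (52.8 ± 1.49), and its KO samples overlapped those of both. RTL8B at 18.1 ± 0.531 came before RTL6 at 17.8 ± 0.980, with overlapping samples. PNMA2 (8.02 ± 0.678) came before RTL10 (7.64 ± 0.439) and LDOC1 (7.26 ± 0.653), the reverse of their WT order, and the KO samples of these 3 genes overlapped.

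**Figure D2:**
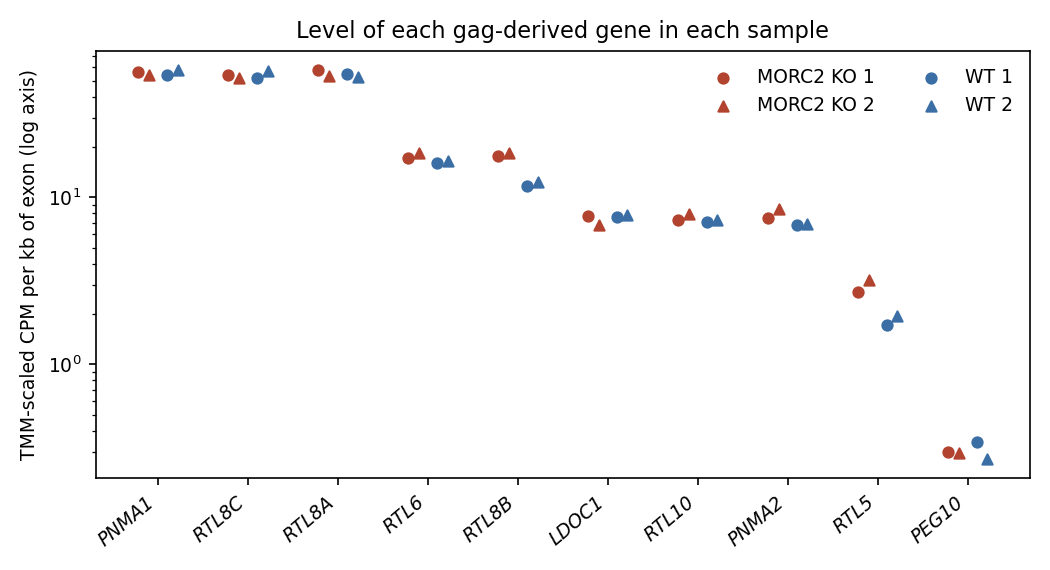
Level of each gag-derived gene in TMM-scaled CPM per kb of exon (log y axis) in each of the 4 samples, with genes in the order of their WT mean, red for MORC2 KO and blue for WT. RTL8B and RTL5 are the members whose KO and WT samples stand visibly apart, while PEG10 lies far below the rest in all 4 samples.

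RTL8B, whose protein is a small gag remnant, rose in MORC2 KO cells. It had 2154 and 2481 counts in KO and 1419 and 1342 in WT, which is 36.0 and 37.6 against 23.8 and 25.2 CPM. Both KO samples were higher than both WT samples, and the gap between the groups was wider than the distance between samples of either. The log2 fold change was 0.59 ± 0.07 (adjusted p = 0.000806, edgeR quasi-likelihood test), which was the 20th smallest p of all tested genes. The gene lies at chrX:133345880-133347909 on the minus strand of T2T-CHM13v2.0 as 1 exon of 2030 bases, and shares no exon base with another gene.

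RTL8A and RTL8C, its near-identical copies, gave values on both sides of no change. RTL8A (chrX:133376299-133377502, minus strand) had 4156 and 4241 counts in KO and 3923 and 3370 in WT, or 69.5 and 64.2 against 65.9 and 63.3 CPM. RTL8C (chrX:133357722-133358913, plus strand) had 3838 and 4075 counts in KO and 3696 and 3612 in WT, or 64.2 and 61.7 against 62.1 and 67.9 CPM. For both genes the KO and WT samples overlapped. The log2 fold changes were 0.05 ± 0.06 for RTL8A (adjusted p = 0.749) and -0.05 ± 0.06 for RTL8C (adjusted p = 0.767).

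When the 3 copies were summed, which does not depend on the copy a read was counted at, the family had 10148 and 10797 counts in KO and 9038 and 8324 in WT. In CPM these are 169.7 and 163.4 against 151.9 and 156.4. The sum was higher in both KO samples, but its log2 fold change of 0.11 ± 0.06 did not pass the threshold (adjusted p = 0.394). RTL8B made up 15.9% of the summed counts in WT, so the sum is made mostly of the other copies. How reads were assigned between the copies was not tested, and the call is one of RTL8B as counted. As a share of the summed counts, RTL8B took 21.2% and 23.0% in KO and 15.7% and 16.1% in WT. RTL8C took 37.8% and 37.7% in KO and 40.9% and 43.4% in WT, and RTL8A took 41.0% and 39.3% in KO and 43.4% and 40.5% in WT. The RTL8B share was higher and the RTL8C share lower in both KO samples, while the RTL8A shares overlapped. Shares of 1 sum are not independent of each other, so a higher RTL8B share lowers the others by construction, and the CPM of RTL8C overlapped as given above. The exact permutation test, two-sided, gave p = 0.333 for RTL8B and for RTL8C, which is the smallest p that 2 samples against 2 can give, and p = 0.667 for RTL8A, so these tests could not pass a threshold of 0.05 and add nothing to the call of RTL8B.

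**Figure D3:**
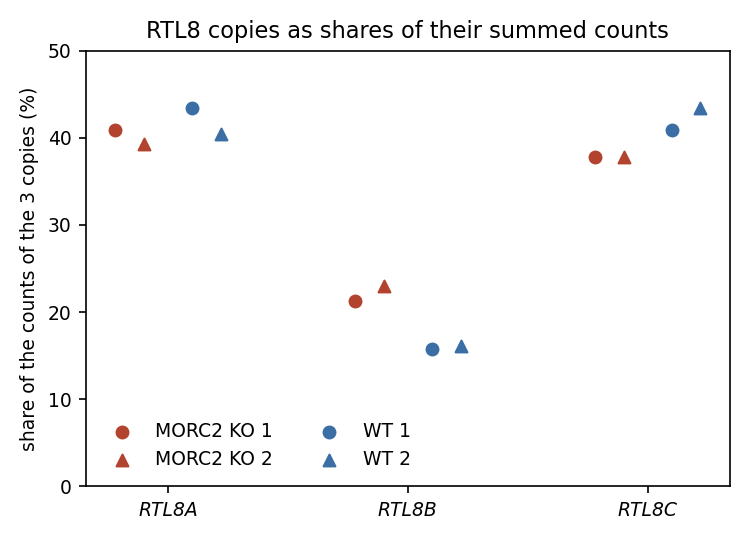
Share of the summed RTL8 counts taken by each copy (y axis, percent, from 0) in each of the 4 samples, red for MORC2 KO and blue for WT. The RTL8B share is 22.1% ± 1.24 in KO and 15.9% ± 0.298 in WT (SD, n = 2), and that of RTL8C is 37.8% ± 0.0554 against 42.1% ± 1.77.

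RTL5, a gene reported to act in innate immune responses of microglia in the mouse, also rose. It had 782 and 1020 counts in KO and 494 and 498 in WT, or 13.1 and 15.4 against 8.30 and 9.36 CPM. Both KO samples were above both WT samples, and KO replicate 2 was the higher of the pair. The log2 fold change was 0.69 ± 0.11 (adjusted p = 0.00782, edgeR quasi-likelihood test), with the 47th smallest p of all tested genes. Taken one at a time over the WT mean, KO replicate 1 was higher by 0.57 and KO replicate 2 by 0.81 on the log2 scale, where RTL8B gave 0.55 and 0.61. RTL5 lies at chrX:70560716-70565521 on the minus strand as 1 exon of 4806 bases, with no exon base shared with another gene. It lies within the span of NHSL2, which is read in the opposite direction, and the counting used no strand.

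RTL6, also reported to act in microglia, and RTL10, whose product has been described as a mitochondrial cell death protein, were higher in both KO samples by small amounts. RTL6 (chr22:44976418-44982051, minus strand, 2 exons) had 5527 and 6602 counts in KO and 5150 and 4719 in WT, or 92.4 and 99.9 against 86.5 and 88.7 CPM. RTL10 (chr22:20223015-20231743, minus strand, 3 exons) had 2916 and 3495 counts in KO and 2830 and 2583 in WT, or 48.8 and 52.9 against 47.6 and 48.5 CPM. In both genes KO replicate 1 lay close above the WT samples and KO replicate 2 further up. The log2 fold changes were 0.14 ± 0.06 for RTL6 (adjusted p = 0.335) and 0.08 ± 0.06 for RTL10 (adjusted p = 0.558), so neither was called. RTL10 shares 2.28% of its exon bases with GNB1L.

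PEG10 is an imprinted gene expressed from the paternal allele that keeps gag and pol reading frames joined by a ribosomal frameshift. It had 119 and 128 counts in KO and 136 and 96 in WT, or 1.99 and 1.94 against 2.29 and 1.80 CPM. Both KO samples lay between the 2 WT samples. The log2 fold change was -0.06 ± 0.19 (adjusted p = 0.910), the widest standard error of the 10 members at the lowest count. PEG10 lies at chr7:95892249-95905573 on the plus strand, 0.192 kb from SGCE, a sarcoglycan gene read in the opposite direction and imprinted with it. SGCE had 821 and 924 counts in KO and 857 and 789 in WT (log2 fold change -0.08 ± 0.08, adjusted p = 0.680). Per kilobase of exon PEG10 stood at 4.68% of the SGCE level in WT. LDOC1 (chrX:139490611-139494505, minus strand, 1 exon), a gag-derived gene with a leucine zipper, had 1798 and 1749 counts in KO and 1764 and 1632 in WT, or 30.1 and 26.5 against 29.6 and 30.7 CPM. Its KO replicate 1 fell between the WT samples and its KO replicate 2 below them, and the log2 fold change was -0.09 ± 0.07 (adjusted p = 0.574).

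PNMA1 and PNMA2 encode paraneoplastic Ma antigens, and the PNMA2 protein is known to assemble into capsids. PNMA1 (chr14:67919319-67921920, minus strand, 1 exon) had 8779 and 9306 counts in KO and 8405 and 7992 in WT, or 146.8 and 140.9 against 141.2 and 150.2 CPM. These samples overlapped, and the log2 fold change was -0.02 ± 0.06 (adjusted p = 0.916). PNMA2, with 3 exons in the table, had 2134 and 2658 counts in KO and 1914 and 1744 in WT, or 35.7 and 40.2 against 32.2 and 32.8 CPM. Both KO samples were above both WT samples, by 0.14 and 0.31 over the WT mean on the log2 scale. Its log2 fold change was 0.23 ± 0.07 (adjusted p = 0.207), which makes PNMA2 the member nearest to the threshold among those not called, as RTL5 at 0.00782 is the nearest among those called.

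Across the members, the KO and WT samples did not overlap in 5 genes, all higher in KO (RTL5, RTL8B, PNMA2, RTL6 and RTL10), and in 0 genes lower in KO. Among all tested genes 24.1% did not overlap and were higher and 23.4% did not overlap and were lower. KO replicate 2 was above KO replicate 1 in 5 of the 10 members and in 50.8% of tested genes. Leaving out KO replicate 1 changed the members' calls. Without KO replicate 1, the fit called 4 members higher, adding PNMA2 (0.30, adjusted p = 0.00183) and RTL6 (0.18, adjusted p = 0.0213), and 1 lower, LDOC1 (-0.20, adjusted p = 0.0373). In that fit 8.16% of tested genes were called higher and 12.4% lower. Without KO replicate 2, PNMA2 was at 0.14 (adjusted p = 0.451), RTL6 at 0.08 (adjusted p = 0.686) and LDOC1 at -0.002 (adjusted p = 0.997). With any sample other than KO replicate 1 left out, the calls were those of RTL5 and RTL8B. These 2 were called under each alternative in which they were tested, with log2 fold changes between 0.57 and 0.80 for RTL5 and between 0.54 and 0.63 for RTL8B when single samples were left out.

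**Figure D4:**
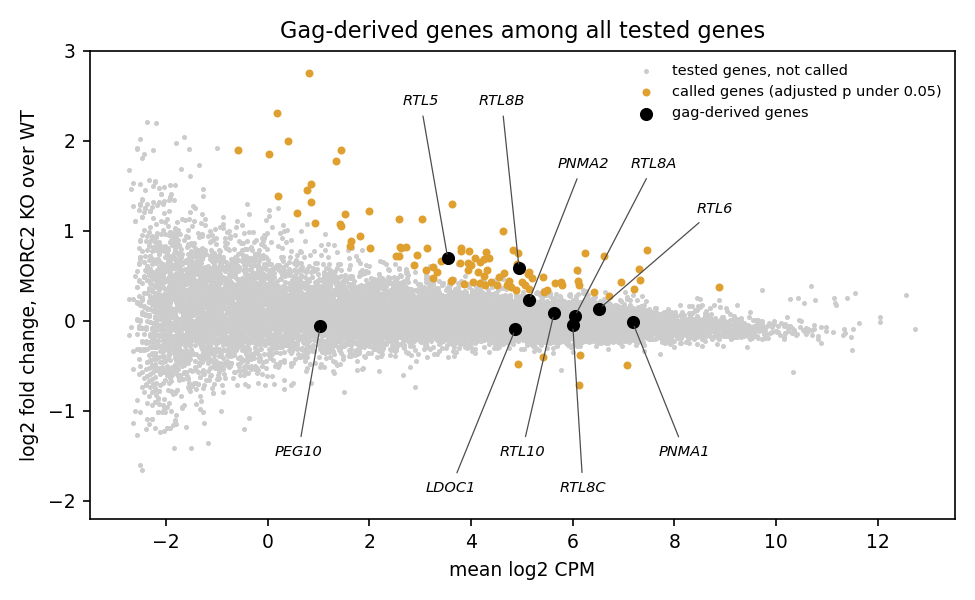
Log2 fold change in MORC2 KO over WT (y axis) against mean log2 CPM (x axis) of all 16675 tested genes, with called genes in orange and the 10 gag-derived genes in black. RTL5 and RTL8B lie among the called genes, and the other 8 lie within the band of genes that were not called, with PEG10 at the lowest abundance of the 10.

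Related genes outside the 10 members were read from the same fit. Of 19 other genes derived from gag or a retrotransposon protease, 18 were in the table and 9 had enough counts to be tested. None of the 9 was called in either direction by edgeR or by DESeq2, and their median log2 fold change was 0.12. At an unadjusted p under 0.05 only PNMA8A was higher, with 4236 and 4855 counts in KO and 3771 and 3373 in WT (0.19 ± 0.06, adjusted p = 0.199). The values ran from -0.10 ± 0.51 for RTL9 to 0.34 ± 0.18 for ZCCHC18 (adjusted p = 0.419). RTL9 had only 8 and 14 counts in KO and 10 and 11 in WT. MOAP1, whose product binds BAX in cell death signalling, was at 0.14 ± 0.06 (adjusted p = 0.349), and ARC, a neuronal capsid-forming gene of synaptic plasticity, at 0.07 ± 0.11 (adjusted p = 0.796). The untested relatives, RTL1, RTL3 and RTL4 among them, had at most 10 counts in any sample. Within the RTL family as listed, 2 of 9 tested genes were called, and both were the members RTL5 and RTL8B. Within the PNMA family 0 of 8 tested genes were called, with 2 at an unadjusted p under 0.05 (PNMA2 and PNMA8A).

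Genes taken from other parts of retroelements were not called by edgeR, some of them at few counts. Of 9 listed genes of retroviral envelopes, of which ERVK13-1 is annotated as a non-coding RNA gene, 4 (ERVK13-1 among them) were tested. By edgeR or by DESeq2 0 were called, with 0 at an unadjusted p under 0.05. Their log2 fold changes lay between -0.06 ± 0.12 for ERVK3-1 and 0.10 ± 0.50 for ERVW-1, the syncytin of the placenta. ERVW-1 had only 9 and 26 counts in KO and 17 and 12 in WT, so its value is uncertain. ERVK3-1 shares 52.2% of its exon bases with other genes, so its counts are uncertain. GIN1 and NYNRIN, which derive from integrase or polymerase sequences, were at -0.09 ± 0.13 and 0.12 ± 0.18 and were not called. UBQLN2, the ubiquilin known to control PEG10 and RTL8 protein levels, had 5267 and 5617 counts in KO and 5041 and 4534 in WT (0.03 ± 0.06, adjusted p = 0.864). UBQLN1 was at -0.06, UBQLN4 at -0.08 and the ubiquitin ligase gene UBE3A at -0.04, and none of these 4 was called or had an unadjusted p under 0.05.

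PEG10 was also set beside imprinted genes and beside its neighbours on 7q21. Of 41 imprinted genes other than PEG10, 26 were tested and 0 were called by edgeR (DESeq2 called 1, GRB10), with a median log2 fold change of 0.04. The values ran from -0.22 ± 0.30 for PEG13 to 0.57 ± 0.34 for NNAT. Both extremes had few counts, with 40 and 38 in KO and 37 and 44 in WT for PEG13. NNAT had 32 and 46 in KO and 28 and 19 in WT. At an unadjusted p under 0.05, 3 were higher (GRB10, L3MBTL1 and ZDBF2) and 0 lower. The adaptor gene GRB10 was nearest to the threshold, with 4709 and 6018 counts in KO and 4041 and 3712 in WT (0.30 ± 0.07, adjusted p = 0.0998). The list for 7q21 held 14 genes, with PEG10 itself among them. Of these 14, 11 were tested (PEG10 included) and 0 were called by edgeR or by DESeq2, with 2 higher and 2 lower at an unadjusted p under 0.05.

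The nearest tested gene on each side of each member was examined. Genes whose span overlaps a member were not taken as neighbours, which leaves out GNB1L at RTL10 (-0.23 ± 0.09, adjusted p = 0.273) and NHSL2 at RTL5 (-0.36 ± 0.18, adjusted p = 0.385). Over the 20 sides there were 16 genes that are not members, at distances between 0.159 and 718.2 kb. By edgeR none rose and 1 fell (DESeq2 called 0 higher and 2 lower), with 4 at an unadjusted p under 0.05 in either direction, and their median log2 fold change was -0.08. The gene that fell was LINC00632, a long non-coding RNA gene 381.9 kb from LDOC1, with 1468 and 1716 counts in KO and 2207 and 1775 in WT (-0.48 ± 0.07, adjusted p = 0.00702). Beside RTL5, RPS26P11 was at -0.34 ± 0.07 (adjusted p = 0.0805 by edgeR, and called lower by DESeq2 with an adjusted p of 0.0408) and PIN4 at -0.12 ± 0.07 (adjusted p = 0.445). RPS26P11 is annotated as a ribosomal protein pseudogene, and whether it shares reads with other genes was not tested. Beside RTL8B, SMIM10 was at 0.23 ± 0.09 (adjusted p = 0.310) and RTL8C at -0.05 ± 0.06.

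**Figure D5:**
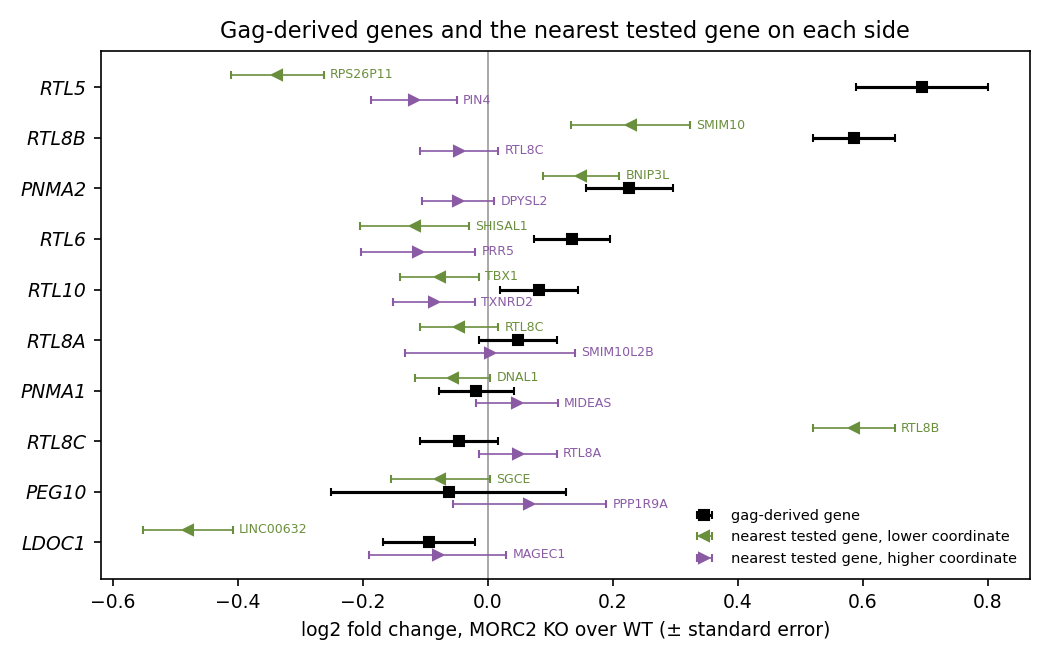
Log2 fold change ± standard error in MORC2 KO over WT (x axis) for each gag-derived gene (black squares) and the nearest tested gene on each side (green and purple triangles). RTL5 and RTL8B exceed both of their neighbours, with -0.34 and -0.12 beside RTL5 and 0.23 and -0.05 beside RTL8B, and LINC00632 beside LDOC1 is at -0.48.

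Since 5 members are on chromosome X and 6 have 1 exon, calls were also counted over all genes with these properties, the members included. RTL5 and RTL8B are therefore among the genes called on chromosome X and among those called with 1 exon. Of 582 tested genes on chromosome X, 8 were higher and 1 lower (1.55% called), and their median log2 fold change was -0.003. Of 350 tested protein-coding genes with 1 exon, 15 were higher and 0 lower (4.29% called), with a median of 0.06, whereas of 13785 with more than 1 exon, 61 were higher and 4 lower (0.472% called), with a median of -0.01. The summed level of all listed protein-coding genes with 1 exon was 35964 and 41814 CPM in KO replicates 1 and 2 and 35259 and 32729 CPM in the WT pair (CPM of the total counts, without TMM factors), so KO replicate 2 stood above the rest, and its part in these counts was not tested. Among the members, 2 of the 6 with 1 exon were called and 0 of the 4 with more exons. LDOC1, RTL8A, RTL8C and PNMA1, the 4 members with 1 exon that were not called, had log2 fold changes between -0.09 and 0.05. The difference between the 2 and the 4 was not tested, since the calls themselves define it.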

How the data were processed

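Poly-A RNA from 2 MORC2 KO and 2 WT samples of HEK293T cells was sequenced, and groups were taken from the sample labels. Read pairs were aligned by the authors with subread (human build T2T-CHM13v2.0) and were counted over strict RefSeq genes with featureCounts (Subread version 2.0.6 per the labels). The deposited values are raw counts per gene. The command in the file header counts multi-mapping reads and uses no strand, whereas the methods speak of default options, so reads of near-identical copies could be counted at either copy. 0 columns of other samples were present. Symbols came from a RefSeq table of GRCh38.p14 (28763 of 28775 identifiers matched). Coordinates of genes are those of the authors' table, and coordinates of sequences are those of GRCh38, with none converted.

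Counts were filtered with filterByExpr (16675 genes left), scaled by TMM (factors 0.986 to 1.03) and tested with edgeR 4.0.16 in its older form (R 4.3.3) by quasi-likelihood F-tests, two-sided, on genotype alone, with Benjamini-Hochberg adjustment over all tested genes at 0.05. Called means past that threshold. The biological coefficient of variation was 5.33%, and a standard error is the log2 fold change over the square root of F. CPM per kb divides CPM by the exon length of the table. The p-values set each difference against a spread estimated from 2 samples per genotype, with information shared over all tested genes. Whether this spread or depth limits the members more was not tested. The scripts were tested on simulated data.

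The members and lists (other gag or protease, RTL, PNMA, envelope, integrase or polymerase, imprinted, 7q21, ubiquilin and cell type marker genes) were chosen with earlier results of these data known. Named were MORC2, the members, SGCE, the ubiquilins, called genes, and the extremes of the related gag and envelope lists. PEG13, NNAT, PNMA8A, MOAP1, ARC, GRB10, L3MBTL1, ZDBF2, the cell type markers, ERVK13-1, and the neighbouring and overlapping genes that were not called were named after their values were seen. Alternatives were DESeq2 1.42.0, robust dispersions, the newer form of edgeR, RLE scaling, library size alone, offsets removing a loess trend on abundance (span 0.3), no filter, at least 10 counts in every sample, an adjusted p under 0.10, the replicate number in the model, summed RTL8 copies, and leaving out each sample, where the lone sample is assumed to vary like the others. The ATAC-seq and ChIP-seq of the study were not used here.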

Additional observations from a re-analysis of the deposited data

How the results depend on the processing

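RTL5 and RTL8B stayed called in every alternative that tested them, and the summed RTL8 copies and the 5 members PEG10, RTL8A, RTL8C, RTL10 and PNMA1 were called in none. Over all genes, calls higher and lower were 463 and 182 with no filter, 237 and 42 with the replicate block, and 88 to 1397 and 9 to 2117 with single samples left out, where 1397 and 2117 came without KO replicate 1 and 149 and 9 without WT replicate 1. DESeq2 gave 17 lower, loess offsets 8 and an adjusted p under 0.10 gave 15. Members higher were 1 with RTL8 copies summed, where RTL8B is no longer a gene of its own, and 2 to 4 with single samples left out (lower, 0 to 1). PNMA2 was also called with no filter (0.23, adjusted p = 0.0480) and with replicate numbers crossed (0.22, adjusted p = 0.00491). With single samples left out, related gag genes higher were 0 to 1, imprinted genes 0 to 4 (lower 0 to 1), genes on 7q21 0 to 2 (lower 0 to 1), and neighbours 0 to 2 (lower 1 to 2); without KO replicate 1 these were PNMA8A; GRB10, L3MBTL1, PLAGL1 and ZDBF2 (lower, BLCAP); CASD1 and GNGT1 (lower, GNG11); and BNIP3L and SMIM10 (lower, LINC00632 and RPS26P11). Without WT replicate 1, 1 imprinted gene, L3MBTL1, was called. Imprinted genes higher were 1 with DESeq2 or an adjusted p under 0.10 (GRB10) and 2 with no filter or the replicate block (GRB10 and L3MBTL1). Neighbours lower were 2 under these 4 settings (LINC00632 and RPS26P11). The cause of these changes was not tested.

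KO and WT share replicate numbers, and the deviations of same-numbered samples correlated at -0.124. A correlation from 4 samples cannot show whether any of them shared a batch, and the labels give only the number. The replicate block left the members' calls at 2 higher and 0 lower, with the summed RTL8 copies at 0.11 (adjusted p = 0.688). Crossed pairing, chosen after seeing the data, gave 903 genes higher and 809 lower, with 3 members, 1 related gag gene, 3 imprinted genes and 1 gene on 7q21 higher and 1 gene on 7q21 and 2 neighbours lower. PEG10 had 96 to 136 counts, the fewest of the members, and the related gag genes that were not tested had at most 10 in any sample. RTL9, a tested relative, had fewer counts than PEG10, with a standard error of 0.51 against 0.19. Whether depth limits these genes more than the spread between samples was not tested.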
